A study of Mus musculus with 30 samples.

Results

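The clock repressors *Per1*, *Per2*, *Per3*, *Cry1*, *Cry2*, and *Ciart* were followed in mouse liver. They were chosen by name, by gene symbol in a time-course table of 54429 genes and by Ensembl identifier in a genotype table of 55471 genes, and all 6 had a row in each table. To determine how the rhythmic liver transcriptome changes with age, the study sequenced poly(A) RNA from livers of male C57BL/6J mice of 2, 6, and 12 months, killed at zeitgeber time (ZT, hours after lights on) 1, 5, 9, 13, 17, and 21, with 1 library for each age and time (18 libraries). To examine the transcription factor Egr-1, it also sequenced livers labelled WT or *Egr-1* KO at the same ages and at 2 times of day, H and L, with 1 library for each combination (12 libraries). The KO came from floxed *Egr-1* crossed with *Alb*-Cre, which acts in hepatocytes, on a strain 129 origin backcrossed to C57BL/6J, and controls were littermates. According to the methods, H and L are the times of highest and lowest Egr-1 protein, which are ZT13 and ZT17 at 2 months, ZT9 and ZT21 at 6 months, and ZT5 and ZT21 at 12 months. No *Egr-1* genotype is given for the time-course mice.

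The mammalian clock is a feedback loop in which BMAL1 (gene *Arntl*) with CLOCK binds E-box sequences and raises transcription of the *Per* and *Cry* genes. PER and CRY proteins then enter the nucleus together and inhibit BMAL1 and CLOCK, so their own transcription falls until they are degraded. D-boxes, bound by DBP and TEF, and RRE elements, bound by nuclear receptors such as REV-ERB, set the timing of single genes, and in liver the loop also follows feeding and hormones.

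*Per1*, *Per2*, and *Per3* encode the PER proteins, *Cry1* and *Cry2* encode the cryptochromes, and *Ciart* encodes CHRONO, a further inhibitor of BMAL1 and CLOCK. In GRCm38 the genes lie at chr11:69095217-69109960 (*Per1*, plus strand), chr1:91415982-91459324 (*Per2*, minus strand), chr4:151003652-151044665 (*Per3*, minus strand), chr10:85131700-85185064 (*Cry1*, minus strand), chr2:92403646-92434043 (*Cry2*, minus strand), and chr3:95878503-95882251 (*Ciart*, minus strand). RefSeq promoter windows, from 250 bases before to 50 bases after a transcript start, were matched for 5 of the 6 genes. The 250 bases upstream of the start are shown for the repressor with the largest fitted amplitude at each age (*Ciart*), for a repressor with D-boxes (*Per3*), for the repressor with the latest peak (*Cry1*), and for the repressor with the lowest ratio of highest to lowest level at each age (*Cry2*). Letters in capitals mark a match on either strand to the E-box CACGTG, its variant CACGTT, the D-boxes TTATGTAA and TTACGTAA, the RRE cores TAGGTCA and TGGGTCA, the cAMP element TGACGTCA, or the EGR motifs GCGTGGGCG and GCGGGGGCG. They are printed 5′ to 3′ on the strand of the gene, from GRCm38.p6, at chr3:95882229-95882478 (*Ciart*), chr4:151044666-151044915 (*Per3*), chr10:85185055-85185304 (*Cry1*), and chr2:92434070-92434319 (*Cry2*), all on the minus strand.
Ciart: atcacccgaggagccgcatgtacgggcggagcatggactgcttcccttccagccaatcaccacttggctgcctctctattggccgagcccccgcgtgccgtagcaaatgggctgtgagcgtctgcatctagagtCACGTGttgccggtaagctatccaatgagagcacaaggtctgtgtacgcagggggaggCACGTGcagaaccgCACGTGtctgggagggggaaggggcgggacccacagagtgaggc
Per3: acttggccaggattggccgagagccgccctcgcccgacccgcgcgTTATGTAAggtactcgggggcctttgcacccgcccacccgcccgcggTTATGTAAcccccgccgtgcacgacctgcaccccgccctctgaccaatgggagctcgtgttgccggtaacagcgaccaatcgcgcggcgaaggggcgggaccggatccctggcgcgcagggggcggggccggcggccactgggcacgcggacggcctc
Cry1: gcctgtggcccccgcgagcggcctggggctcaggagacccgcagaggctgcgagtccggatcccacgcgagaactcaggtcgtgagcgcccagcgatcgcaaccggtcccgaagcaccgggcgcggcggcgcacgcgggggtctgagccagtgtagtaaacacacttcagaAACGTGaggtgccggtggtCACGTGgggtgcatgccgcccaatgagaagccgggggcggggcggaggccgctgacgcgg
Cry2: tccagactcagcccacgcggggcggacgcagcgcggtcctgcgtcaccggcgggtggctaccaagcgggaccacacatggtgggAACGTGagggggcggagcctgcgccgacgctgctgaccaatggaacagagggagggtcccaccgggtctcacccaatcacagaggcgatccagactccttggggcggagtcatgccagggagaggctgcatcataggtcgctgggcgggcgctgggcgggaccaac

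*Ciart* held 3 copies of CACGTG, beginning 116, 58, and 44 bases before the start, and 0.0883% of 32851 mouse promoter windows held 3 or more. *Per3* held TTATGTAA at 205 and 158 bases before the start, where 0.0213% of windows held it at least 2 times and 0.938% held it at all. *Cry1* held CACGTG 60 bases and the variant 79 bases before the start, and *Cry2* held the variant alone, 166 bases before the start. CACGTG stood in 7.15% and CACGTT in 4.68% of all windows. The first of 2 *Per1* windows held CACGTG 166 bases before its start. No match to the other motifs was found in the member windows, while TTACGTAA stood in 0.119%, TAGGTCA in 2.61%, TGGGTCA in 3.98%, TGACGTCA in 1.79%, GCGTGGGCG in 0.612%, and GCGGGGGCG in 2.91% of all windows. CACGTG, TTACGTAA, and TGACGTCA read alike on both strands and were counted once, and no motif of this list contains another. A match says only that these letters occur.

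Total counts ranged from 13375377 to 16557378 per library in the time course and from 13747706 to 21748956 in the genotype experiment, and each age and time had 1 library. The study's figure legends speak of several mice per group for the RNA-seq, but how these relate to the single deposited library of each group, and whether RNA was pooled, is not stated in the sources used here, so p-values rest on the spread between libraries at different times. Levels are in CPM, the usual depth-normalised read count, here computed with library totals scaled by edgeR's TMM factors. Hepatocyte markers summed to 46834 to 120575 CPM over the 18 time-course libraries, against 276 to 569 CPM for Kupffer cell markers and 97.5 to 224 CPM for endothelial markers. The library of 6 months at ZT5 had the lowest hepatocyte sum, the highest endothelial sum, and the highest neutrophil sum, 135 CPM. All 6 libraries of 6 months had neutrophil sums (20.3 to 135 CPM) above those of 2 months (1.89 to 5.15 CPM) and 12 months (4.01 to 10.6 CPM). In these bulk samples, fewer cells of a type and less RNA per cell cannot be told apart.

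All 6 repressors were highest between ZT9 and ZT21, but they did not peak together. A curve of 24-h period was fitted at each age by edgeR's quasi-likelihood method, and its amplitude is the rise from mean to peak on the log2 scale. In order of age the fitted peak of *Ciart* was at ZT10.1, ZT12.0, and ZT12.1, the earliest of the 6. However, at each age it preceded the next member by less than the SE of that member's peak. *Cry1* was last at each age, at ZT18.6, ZT21.3, and ZT19.7, and the order of the other members changed with age. By this test 5 of the 6 members passed at 2 months, 4 at 6 months, and 5 at 12 months (Benjamini-Hochberg adjusted p under 0.05), where 4.72%, 4.62%, and 3.53% of all genes passed. *Cry2* did not pass at any age, and *Per1* did not pass at 6 months.

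**Figure D1:**
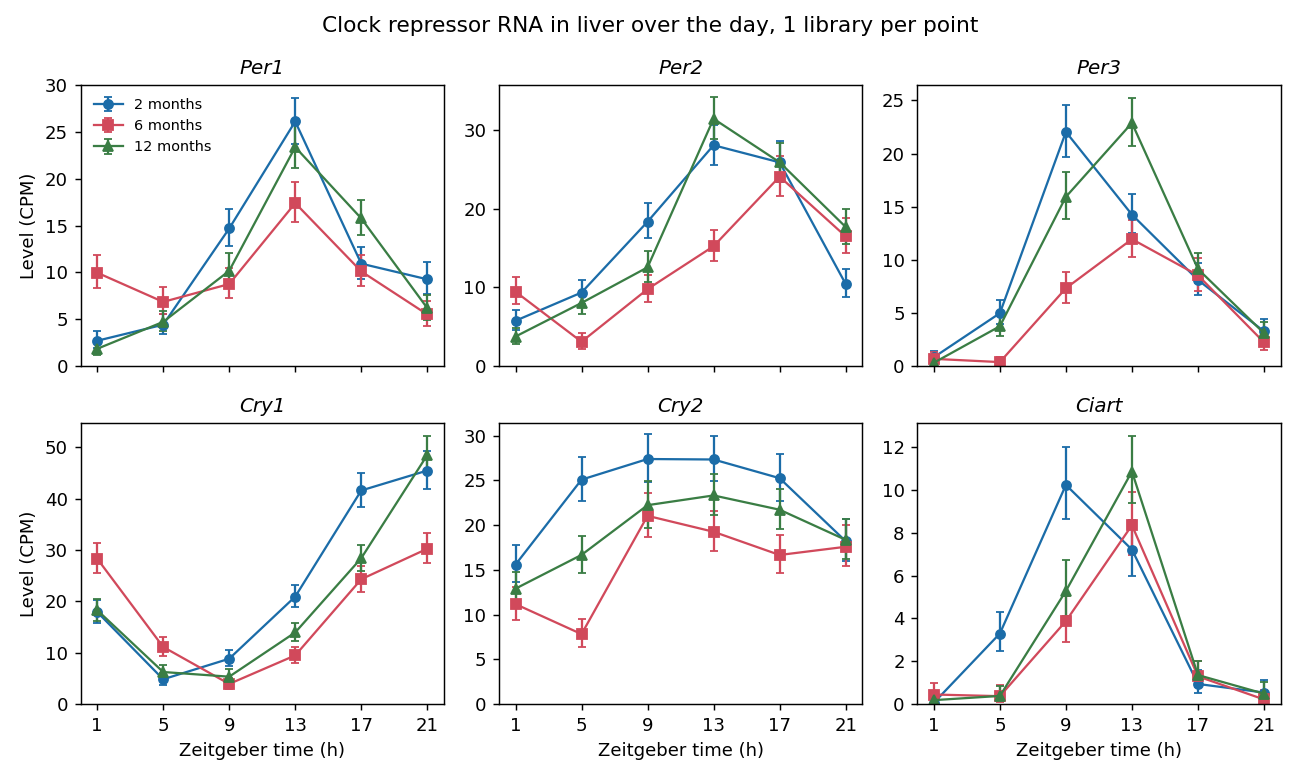
Level of each clock repressor in CPM (y axis) over zeitgeber time in hours (x axis) at 2, 6, and 12 months, 1 library per point, with exact Poisson 95% intervals as bars. *Per3* and *Ciart* were highest at ZT9 at 2 months and at ZT13 at 6 and 12 months, and *Cry1* was highest at ZT21 at all 3 ages.

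*Per1* encodes a PER protein whose gene also responds quickly to cAMP and glucocorticoid signals. At 2 months the lowest library had 2.70 CPM (ZT1), the highest 26.1 CPM (ZT13), and the median was 10.1 CPM over the 6 times. At 6 months the lowest library had 5.51 CPM (ZT21), the highest 17.4 CPM (ZT13), and the median was 9.37 CPM. At 12 months the lowest library had 1.84 CPM (ZT1), the highest 23.4 CPM (ZT13), and the median was 8.18 CPM. The peak stayed at ZT13, while the 6-month group was the highest of the 3 ages at ZT1 and the lowest at ZT13. The highest level was 9.66 times the lowest at 2 months (95% counting interval 6.96 to 13.8), 3.16 times at 6 months (2.43 to 4.14), and 12.7 times at 12 months (8.69 to 19.2). The fitted amplitude was 1.40 ± 0.23 (SE) at 2 months, 0.49 ± 0.22 at 6 months, and 1.60 ± 0.23 at 12 months, with edgeR adjusted p of 0.00458, 0.363, and 0.00278.

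*Per2* encodes the PER protein whose loss shortens or abolishes behavioural rhythms in mice. Its fitted peak lay at ZT13.7 ± 0.60 (SE) in the 2-month group, ZT17.0 ± 0.62 in the 6-month group, and ZT14.9 ± 0.52 in the 12-month group. At ZT13 the 6-month library had 15.2 CPM, against 28.0 CPM at 2 months and 31.4 CPM at 12 months. At ZT17 the 3 ages lay between 24.05 and 25.9 CPM. The ages thus met at ZT17 and stood apart at ZT13, and their fitted amplitudes were 1.14 ± 0.18, 1.13 ± 0.19, and 1.31 ± 0.18 (edgeR adjusted p 0.00394, 0.00563, and 0.00226). The trough was at ZT1 at 2 and 12 months and at ZT5 at 6 months, in the library with the highest neutrophil sum.

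*Per3* encodes the third PER protein, which is largely dispensable for the clock itself. At 2 months the lowest library had 0.832 CPM (ZT1), the highest 22.03 CPM (ZT9), and the median was 6.54 CPM. At 6 months the lowest library had 0.377 CPM (ZT5), the highest 11.9 CPM (ZT13), and the median was 4.78 CPM. At 12 months the lowest library had 0.318 CPM (ZT1), the highest 22.9 CPM (ZT13), and the median was 6.44 CPM. The 2-month and 12-month groups reached similar heights, with overlapping counting intervals, at different sampled times, and the 6-month group stayed lower at its peak. The highest level was 26.5 times the lowest at 2 months (15.0 to 51.8), 31.7 times at 6 months (13.3 to 98.8), and 71.9 times at 12 months (30.6 to 222.7). The trough rests on 5 counts at 6 months and 5 counts at 12 months. Fitted amplitudes were 1.88 ± 0.30, 2.31 ± 0.37, and 2.25 ± 0.31 (edgeR adjusted p 0.00398, 0.00219, and 0.00167).

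*Cry1* encodes the cryptochrome that represses BMAL1 and CLOCK most strongly, late in the cycle. At 2 months the lowest library had 4.85 CPM (ZT5), the highest 45.5 CPM (ZT21), and the median was 19.4 CPM. At 6 months the lowest library had 3.95 CPM (ZT9), the highest 30.3 CPM (ZT21), and the median was 17.7 CPM. At 12 months the lowest library had 5.36 CPM (ZT9), the highest 48.5 CPM (ZT21), and the median was 16.1 CPM. The trough thus lay at ZT5 at 2 months and at ZT9 at the later ages, and at ZT1 the 6-month library, with 28.3 CPM, stood above the 17.96 CPM of 2 months and the 18.3 CPM of 12 months. Its 24-h curves had the smallest adjusted p of the 6 members at every age (edgeR, 8.65e-05, 0.000341, and 0.000307). The amplitudes were 1.56 ± 0.15 at 2 months, 1.37 ± 0.15 at 6 months, and 1.57 ± 0.15 at 12 months. In CPM the highest level was 9.37 times (7.38 to 12.0), 7.66 times (5.77 to 10.3), and 9.04 times (7.04 to 11.8) the lowest, in order of age.

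*Cry2*, the second cryptochrome, had the lowest ratio of highest to lowest level at each age, although at 6 months its fitted amplitude was above that of *Per1*. At 2 months the lowest library had 15.6 CPM (ZT1), the highest 27.4 CPM (ZT9), and the median was 25.2 CPM. At 6 months the lowest library had 7.83 CPM (ZT5), the highest 21.04 CPM (ZT9), and the median was 17.1 CPM. At 12 months the lowest library had 12.9 CPM (ZT1), the highest 23.3 CPM (ZT13), and the median was 20.05 CPM. The highest level was 1.76 times the lowest at 2 months (1.49 to 2.08), 2.69 times at 6 months (2.14 to 3.39), and 1.81 times at 12 months (1.52 to 2.15). The amplitudes of 0.39 ± 0.14, 0.52 ± 0.14, and 0.40 ± 0.14 did not pass the test (edgeR adjusted p 0.223, 0.115, and 0.251). Without adjustment the p was 0.0381, 0.00968, and 0.0365 by the same edgeR fit across all genes.

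*Ciart*, whose product CHRONO is itself a target of the clock, had the largest fitted amplitude at each age, although at 12 months its ratio of highest to lowest level was below that of *Per3*. At 2 months the lowest library had 0.0693 CPM (ZT1), the highest 10.2 CPM (ZT9), and the median was 2.12 CPM. At 6 months the lowest library had 0.224 CPM (ZT21), the highest 8.35 CPM (ZT13), and the median was 0.876 CPM. At 12 months the lowest library had 0.191 CPM (ZT1), the highest 10.9 CPM (ZT13), and the median was 0.927 CPM. At ZT5 the 2-month library had 53 counts, or 3.30 CPM, while the 6-month library had 5 counts and the 12-month library 6 counts. The lowest libraries held 1 count at 2 months and 3 counts at 6 and 12 months, so the ratio of highest to lowest was loose, at 147.5 (26.1 to 5866), 37.3 (12.5 to 183.4), and 56.9 (19.2 to 278.2). The amplitudes were 2.79 ± 0.39, 2.79 ± 0.45, and 3.14 ± 0.44 (edgeR adjusted p 0.000552, 0.000811, and 0.000454).

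As a rank-based check in the manner of JTK_cycle, the order of the 6 values of an age was compared with cosines peaking at each sampled ZT by an exact permutation test, in the 12470 genes that averaged 1 CPM or more. Its smallest p is 0.0333 and its next p is 0.133, from all 720 orders, two-sided and without adjustment. At 2 months 2 members reached the smallest p (*Per1* and *Per2*), where 8.66% of all genes did. At 6 months 2 members reached it (*Per2* and *Cry1*), against 8.18% of all genes. At 12 months 5 members reached it (all but *Per2*), against 6.43% of all genes. *Cry2* thus reached the smallest p at 12 months in this test, while it did not pass at that age in the fitted curve.

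Levels were compared between members only per kilobase of annotated exon. On this scale, over the 6 times of the 2-month group, *Cry1* had a mean of 6.97 CPM per kb ± 5.03 (SD, n = 6), *Cry2* 3.66 ± 0.79, *Per2* 2.78 ± 1.58, *Per1* 2.02 ± 1.499, *Ciart* 1.64 ± 1.83, and *Per3* 0.927 ± 0.825. *Cry1* thus had the highest mean and *Per3* the lowest. Each neighbour in this order differed from the next by less than the larger of their SDs over the day. The order was the same at 12 months, from 6.03 ± 4.87 (*Cry1*) to 0.956 ± 0.905 (*Per3*), and at 6 months, from 5.36 ± 3.32 (*Cry1*) to 0.539 ± 0.496 (*Per3*). Because the annotation counted all exons of a gene, the length of the transcripts present in liver may be shorter.

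Mean levels over the day were compared between ages in edgeR (quasi-likelihood), each ZT forming a block of its own. From 2 to 6 months *Cry2* was the 1 member that passed, and 1 call in 6 members is not far from the share of all genes that passed, 11.5%. It was lower at 6 of 6 times, by 0.61 ± 0.17 on the log2 scale (edgeR adjusted p = 0.0386). The gap was widest at ZT5, with 7.83 CPM at 6 months against 25.1 CPM at 2 months, and narrowest at ZT21, with 17.6 against 18.2 CPM, where the counting intervals overlapped. Leaving out ZT5, the time of the library with the highest neutrophil sum, gave a fall of 0.41 (adjusted p = 0.0289), while leaving out ZT1, ZT9, ZT13, or ZT17 gave falls of 0.61 to 0.66 with adjusted p from 0.0748 to 0.0823. The call therefore ended without any 1 of these 4 times, in fits with fewer libraries. Cell markers also differed between 2 and 6 months. The neutrophil markers *S100a8* and *S100a9* were higher at 6 months at 6 of 6 times, by 3.86 ± 0.33 and 4.12 ± 0.30 on the log2 scale (edgeR adjusted p 7.36e-05 and 2.35e-05). The hepatocyte marker *Cps1* was lower at 6 of 6 times, with a difference of -0.84 ± 0.11 (adjusted p = 0.00138), while *Alb*, *Ttr*, *Apob*, and *Tat* did not pass. The endothelial marker *Clec4g* (0.49 ± 0.09), the Kupffer cell marker *Cd5l* (0.40 ± 0.10), and the cholangiocyte markers *Krt19* (1.11 ± 0.28) and *Krt7* (1.12 ± 0.32) were higher and passed. The summed hepatocyte level was 46834 to 97648 CPM at 6 months and 80918 to 96512 CPM at 2 months. The part of these markers in the *Cry2* difference was not tested.

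The other 5 members also had log2 differences below 0, but none passed. *Per3* was lower at 5 of 6 times, with a log2 difference of -0.88 ± 0.34 (edgeR adjusted p = 0.131), and *Ciart* differed by -0.68 ± 0.44, *Per2* by -0.35 ± 0.26, *Cry1* by -0.33 ± 0.27, and *Per1* by -0.04 ± 0.28. In this test a difference between ages that varies with ZT counts as spread, and these SEs were all above the 0.17 of *Cry2*. By the level of the fitted curves *Per3* passed as well as *Cry2*, at -1.01 (edgeR adjusted p = 0.0474). The median log2 difference of the 6 members was -0.48, beside 0.00 over all genes tested. Metallothionein *Mt2*, a gene induced by glucocorticoids and metals, was higher at 6 months at 6 of 6 times, by 6.72 ± 0.43 on the log2 scale (edgeR adjusted p = 1.55e-06). It was the 1 gene that passed of 5 listed glucocorticoid-responsive genes. The others were uneven in sign, with *Fkbp5* at 0.71 ± 0.33, *Sgk1* at 0.43 ± 0.19, *Tsc22d3* at -0.35 ± 0.17, and *Tat* at -0.20 ± 0.15. The part of *Mt2* in the levels of the members was not tested.

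Between 2 and 12 months 0 members passed by edgeR, where 14.5% of all genes did. *Cry2* was again lower at 6 of 6 times, with a log2 difference of -0.26 ± 0.09 (edgeR adjusted p = 0.0614). It was the 1 member with an unadjusted p under 0.05, where 4041 of 14001 genes had one. The other differences ranged from -0.41 ± 0.38 (*Ciart*) to -0.03 ± 0.17 (*Per3*). Between 6 and 12 months 0 members passed, against 10.2% of all genes. Without adjustment 3700 of 14047 genes had an edgeR p under 0.05, and so did 2 members. These were *Per3*, with a log2 difference of 0.85 ± 0.30 (edgeR adjusted p = 0.0979, higher at 12 months at 5 of 6 times), and *Cry2*, with 0.36 ± 0.13 (adjusted p = 0.108, higher at 6 of 6 times). DESeq2's Wald test called 0 members in both comparisons with 12 months. The 3 comparisons share libraries and are not independent.

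The fitted peak was later at 6 than at 2 months in 5 of the 6 members. *Per2* peaked later by 3.34 ± 0.86 h (SE), *Cry1* by 2.73 ± 0.55 h, *Per3* by 2.09 ± 0.78 h, and *Ciart* by 1.90 ± 0.65 h. These are the 4 members whose curve passed at both ages. *Cry2* had a shift of 3.10 ± 1.67 h and *Per1* of -0.68 ± 1.84 h, each with a peak poorly placed at 1 or both ages. A later peak was also fitted in 11 of 11 other clock genes with a curve at both ages (median 2.73 h) and in 195 of 229 genes of any kind (85.2%, median 1.81 h), so other rhythmic genes shared it.

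**Figure D2:**
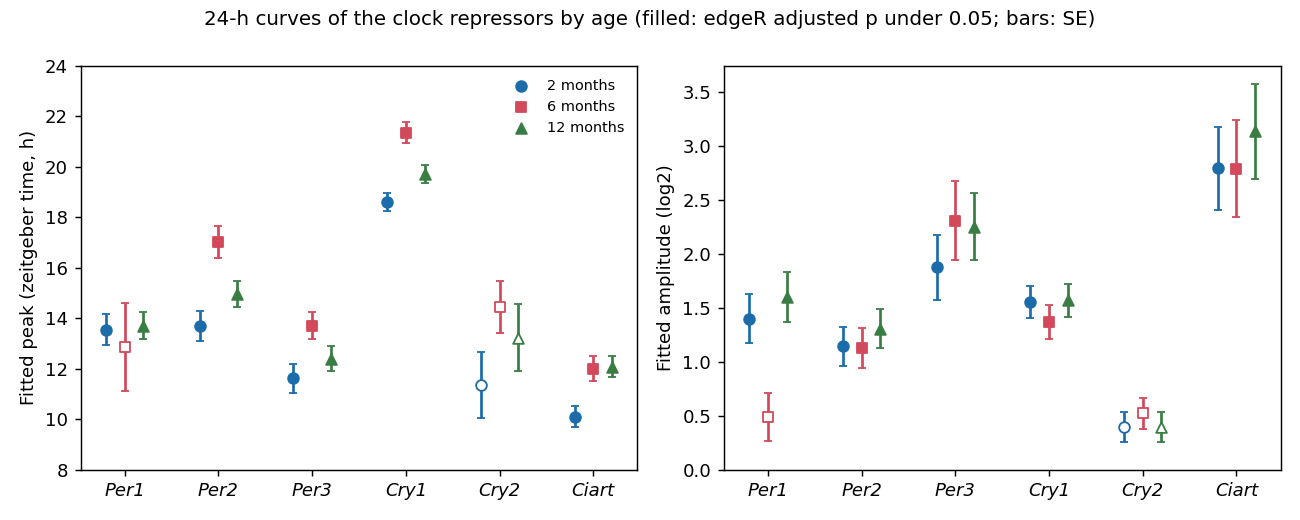
Fitted peak in zeitgeber time (left y axis, hours) and fitted log2 amplitude (right y axis) of the 24-h curve of each clock repressor at 2, 6, and 12 months, with SE bars. Filled symbols passed at an edgeR adjusted p under 0.05, and the 6-month amplitude of *Per1*, 0.49, lies below those of the other ages.

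The test of the rhythm itself between ages, over the cosine and sine terms, called 0 members from 2 to 6 months by edgeR, where 0.23% of all genes passed. Without adjustment, 5 members had a p under 0.05, beside 1572 of 13895 genes, all from the edgeR fit across all genes. The members were *Cry1* (0.000978, adjusted 0.110), *Per2* (0.00202, adjusted 0.139), *Per3* (0.0297), *Ciart* (0.0411), and *Per1* (0.0425). DESeq2's likelihood-ratio test called *Cry1* (adjusted p = 0.00166) and *Per2* (adjusted p = 0.00735). Over all genes, the alternative settings of this comparison, DESeq2 among them, called 0 to 266 genes. The number called by DESeq2 alone is not given here. For *Per1* the difference lay in the amplitude, which was lower at 6 months by 0.91 ± 0.32 on the log2 scale. For *Cry1* and *Per2* the amplitude differed by -0.19 ± 0.21 and -0.02 ± 0.26, in each case by less than its error.

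Between 2 and 12 months edgeR called 0 members and 0.0% of all genes (623 of 14001 genes had an unadjusted p under 0.05), DESeq2 called 0 members, and *Ciart* alone had an unadjusted p under 0.05 (0.0129 by edgeR across all genes). *Ciart* peaked 1.98 ± 0.60 h later at 12 months, *Per2* 1.27 ± 0.79 h, *Cry1* 1.12 ± 0.51 h, *Per3* 0.78 ± 0.75 h, and *Per1* 0.16 ± 0.82 h. The median of these 5 members was 1.12 h, beside 1.43 h over 322 genes of any kind with a curve at both ages, of which 287 (89.1%) peaked later. Between 6 and 12 months edgeR called 0 members, against 0.0214% of all genes. *Per1* (adjusted p = 0.241) and *Cry1* (adjusted p = 0.421) had an unadjusted p under 0.05, beside 1334 of 14047 genes in the same edgeR fit. DESeq2 called *Per1* (adjusted p = 0.0270), whose amplitude was higher at 12 months by 1.11 ± 0.32. Over all genes, the alternative settings of this comparison, DESeq2 among them, called 0 to 168 genes. *Ciart* differed by less than its error between 6 and 12 months (shift 0.07 ± 0.64 h). *Per2* and *Cry1* peaked earlier than at 6 months, by -2.07 ± 0.81 h and -1.61 ± 0.55 h. Other rhythmic genes shared this direction. The median shift was -1.41 h in 11 other clock genes with a curve at both ages, of which 1 peaked later. Over 195 genes of any kind it was -0.70 h, and 68 (34.9%) peaked later.

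The genes around the repressors were counted from fixed lists. All 3 activators (*Arntl*, *Clock*, *Npas2*), 3 of 4 nuclear receptors, and 5 of 6 E-box and D-box factors had a 24-h curve at each age. *Arntl*, the activator, ran opposite to *Ciart*, with a fitted peak at ZT21.7 at 2 months and 0.24 h after lights on at 6 months. *Nr1d1*, the receptor REV-ERBα that represses *Arntl* and *Cry1*, peaked at ZT6.44 at 2 months and ZT9.65 at 6 months. Of 12 genes for the turnover of PER and CRY proteins, 1 passed at 2 months, 1 at 6 months, and 2 at 12 months. *Usp2*, a deubiquitinase, passed at all 3 ages, with amplitudes of 2.36 ± 0.24, 1.99 ± 0.24, and 2.19 ± 0.24 and peaks from ZT12.5 to ZT13.8, and *Prkaa2*, a subunit of the kinase AMPK, passed at 12 months (0.48 ± 0.10).

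Of 6 genes for partners of the PER complex, 2 passed at 2 months, 0 at 6 months, and 2 at 12 months. *Cipc*, a CLOCK-interacting repressor, had amplitudes of 0.45 ± 0.09 and 0.57 ± 0.09 at 2 and 12 months, and *Sfpq*, an RNA-binding partner of PER, 0.43 ± 0.10 and 0.56 ± 0.10. In level, 1 of 12 turnover genes and 0 of 6 complex genes passed between 2 and 6 months, 0 and 1 between 2 and 12 months, and 0 and 0 between 6 and 12 months. From 2 to 6 months *Prkaa2* fell by 0.46 ± 0.09 (edgeR adjusted p = 0.0105), and from 2 to 12 months *Cipc* fell by 0.37 ± 0.08 (adjusted p = 0.00647). No activator and no E-box or D-box factor passed this test of level, but by the level of the fitted curves *Nfil3*, which competes with DBP at D-boxes, passed from 2 to 6 months (0.57, adjusted p = 0.0263) and from 6 to 12 months (-0.54, adjusted p = 0.0325), both in edgeR.

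For each repressor the 3 genes with the most similar profile were found by Pearson's r of log2(CPM + 0.5) over the 18 time-course libraries. These libraries share the time of day and the age, so r is a description. *Per3* was most like *Tef* (r = 0.98), a D-box factor, then *Wee1* (0.95), a cell-cycle kinase, and *Nmrk1* (0.94). *Ciart* was most like *Coq10b* (0.95), *Uri1* (0.94), and *Pcsk4* (0.92), and *Per1* was most like *Noct* (0.92), which encodes nocturnin, *Klf13* (0.89), and *Arhgap21* (0.88). *Per2* was most like *Cul4a* (0.90), *Cyp2a5* (0.90), and *Wwp1* (0.89).

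*Cry1* was most like *Fkbp4* (0.92), a co-chaperone of steroid receptors, *Ahctf1* (0.91), and *Lonrf3* (0.90), and of all genes it was least like *Nr1d1* (r = -0.94). *Cry2* was most like *Optn* (0.90), *Acot12* (0.90), and *Ppara* (0.90), the receptor that drives fatty acid oxidation. No repressor was among the 3 nearest of another. Between members, *Per3* and *Ciart* had r = 0.86, *Per3* and *Cry2* 0.85, and *Per2* and *Per3* 0.80, while *Cry1* stood apart, with r from -0.48 (*Ciart*) to 0.30 (*Per2*). *Ciart* was nearly a mirror of *Arntl* (r = -0.95).

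*Egr1*, the targeted gene, was lower in the library labelled KO in 4 of the 6 pairs of the genotype experiment. From the library labelled WT to the library labelled KO it went from 72.4 to 5.54 CPM at 6 months H, from 24.9 to 4.92 CPM at 6 months L, from 54.8 to 1.53 CPM at 12 months L, and from 2.57 to 1.99 CPM at 2 months H, where the counting interval of the ratio took in 1. In 2 pairs it was not lower under the KO label. At 2 months L the library labelled WT had 1.45 CPM and the library labelled KO 7.43 CPM. At 12 months H they had 5.83 and 6.11 CPM, and the counting interval of the ratio took in 1 (0.810 to 1.36). The summed hepatocyte level was lower under the KO label in all 6 pairs, these 2 included, at 73585 and 48047 CPM (2 months L) and at 65418 and 44050 CPM (12 months H), WT first. This sum does not measure *Egr1*, and its bearing on the labels was not tested. The libraries are called here by their labels. Over the 6 pairs *Egr1* differed by -1.76 ± 0.69 on the log2 scale (SE, edgeR adjusted p = 0.324).

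The 2 tables were normalized separately and held different mice, so the levels that follow are set side by side without a test. At 2 months L, given as ZT17, the library labelled WT had 16.0 CPM of *Cry1* and 5.99 CPM of *Ciart*, where the time course at ZT17 had 41.6 and 0.945 CPM. At 2 months H, given as ZT13, it had 48.7 CPM of *Cry1*, where the time course had 20.9 CPM. At 12 months H, given as ZT5, *Cry1* was 32.0 CPM against 6.27 CPM, a ratio of 5.10, and *Per3* 1.26 CPM against 3.75 CPM. *Cry1* was thus higher at H than at L at 2 months in the genotype experiment, and lower at ZT13 than at ZT17 in the time course. *Cry2* was 1.41 to 1.99 times the time-course level in all 6 libraries labelled WT.

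**Figure D3:**
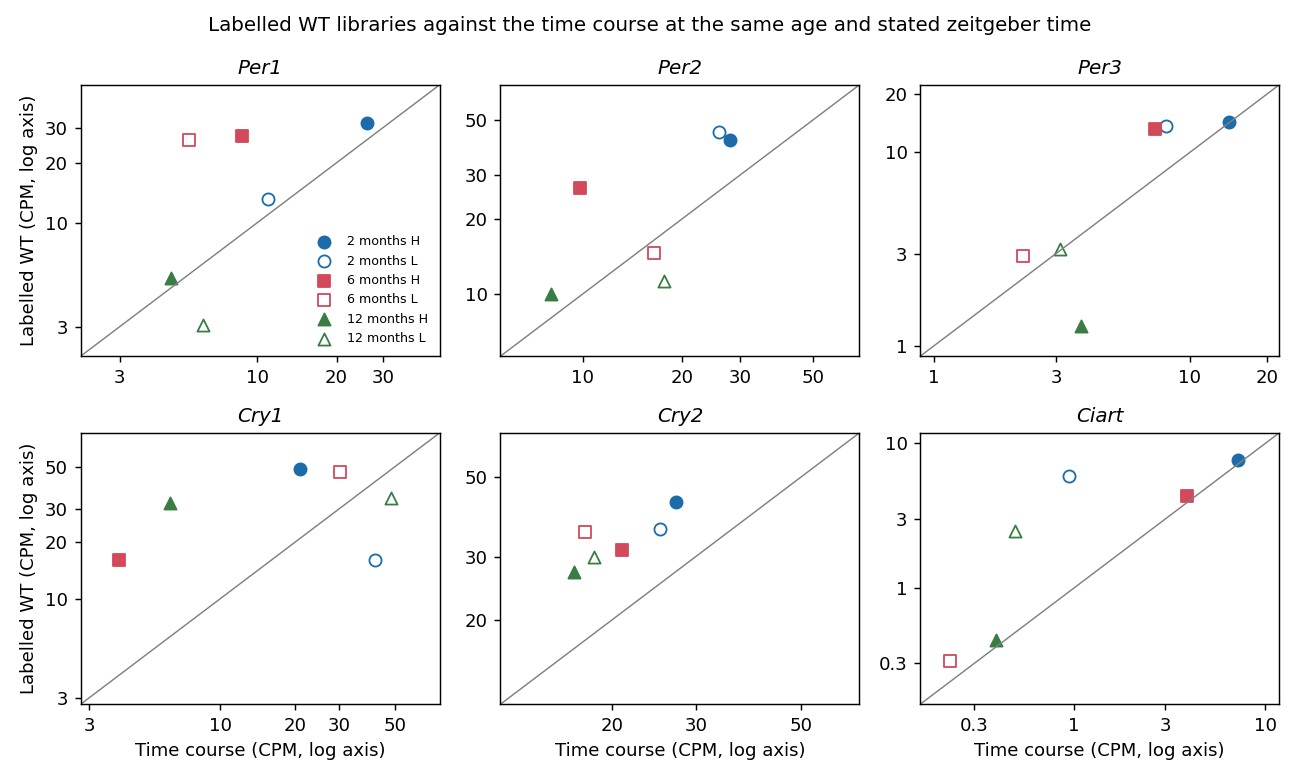
Level of each clock repressor in the 6 libraries labelled WT (y axis, CPM, log scale) against the time-course library of the same age and stated zeitgeber time (x axis, CPM, log scale), with a line of equality. All *Cry2* points lie above the line, and the *Cry1* point of 2 months L lies below it, at 16.0 CPM against 41.6 CPM.

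Over the 6 repressors together, the nearest time-course library of the same age, by the root mean square of log2 differences, was that of the stated ZT in 4 of the 12 libraries. Both libraries of 2 months H were nearest to ZT13, as stated. Both of 2 months L, stated as ZT17, were nearest to ZT13, both of 6 months H, stated as ZT9, were nearest to ZT13, and both of 12 months H, stated as ZT5, were nearest to ZT21. At L of 6 and 12 months, stated as ZT21, the libraries labelled WT were nearest to ZT21 and the libraries labelled KO to ZT17. WT at 6 months L lay 1.01 from ZT21 and 1.12 from ZT17, and KO at 12 months L 0.722 from ZT17 and 0.869 from ZT21. The gaps were wider for KO at 6 months L (0.992 from ZT17, 1.41 from ZT21) and WT at 12 months L (0.862 from ZT21, 1.21 from ZT17). Leaving out *Cry2* left the nearest time in place in 11 of the 12 libraries, the exception being WT at 6 months L, which moved to ZT1. This measure was chosen after the values were seen, and the distance to the nearest time was 0.318 to 1.01 on the log2 scale.

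To ask whether the repressors differ with the *Egr-1* genotype, the 6 pairs were fitted by edgeR with each pair as a block. Of the 6 members 0 passed, where 1.36% of all genes passed. Without adjustment 0 members had a p under 0.05, where 2272 of 14843 genes had one. DESeq2's Wald test also called 0. *Cry1* and *Cry2* were lower in the library labelled KO in 5 of 6 pairs, with log2 differences of -0.15 ± 0.08 (SE, edgeR adjusted p = 0.442) and -0.17 ± 0.09 (adjusted p = 0.399). Hepatocyte markers differed in the same libraries. Their sum was 37403 to 51376 CPM in the 6 libraries labelled KO and 65418 to 82474 CPM in the 6 labelled WT, so the groups did not overlap. How many of all genes separate the labels in this way was not counted. Of the 5 hepatocyte markers 2 passed, *Alb* at -0.89 ± 0.10 (adjusted p = 0.00747) and *Apob* at -0.39 ± 0.07 (adjusted p = 0.0387), each lower under the KO label in 6 of 6 pairs. *Ttr* (-0.19 ± 0.10) and *Cps1* (-0.15 ± 0.08) did not pass. *Tat* did not pass either, at 0.08 ± 0.16, and was higher under the KO label in 3 of 6 pairs. No marker of another cell type passed. The part of the hepatocyte markers in the levels of the members was not tested. *Per1* differed by 0.47 ± 0.31 (adjusted p = 0.535), *Ciart* by 0.21 ± 0.38, *Per2* by -0.08 ± 0.12, and *Per3* by 0.05 ± 0.17. The median of the members was -0.02, beside -0.01 over all genes.

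Single pairs held larger differences, which have no replicate check. *Per1* at 12 months L had 3.05 CPM in the library labelled WT and 20.2 CPM in the library labelled KO, a ratio of 6.63 (95% counting interval 4.88 to 9.19). At 2 months L it had 13.1 and 28.7 CPM, a ratio of 2.19 (1.85 to 2.61). In the other 4 pairs the ratio lay between 0.848 and 1.05. *Per1* was therefore higher under the KO label in 2 of the 3 L pairs. In these pairs *Egr1* itself went in opposite directions from the WT to the KO label. It went from 54.8 to 1.53 CPM at 12 months L and from 1.45 to 7.43 CPM at 2 months L. At 6 months H *Per1* was lower, at 0.848 (0.749 to 0.961), and in the other 3 pairs the counting interval took in 1. In the same 12 months L pair the 6 listed heat-responsive genes had KO to WT ratios of 12.0 (*Hspa1a*), 3.30 (*Hspa1b*), 2.06 (*Dnajb1*), 1.00 (*Hsph1*), 0.914 (*Hspa8*), and 0.624 (*Cirbp*). *Hspa1a* and *Hspa1b* are near-identical copies, so their separate counts are uncertain. The 5 listed glucocorticoid-responsive genes had ratios of 0.262 to 1.16. The lowest was that of *Mt2*, near the floor at 0.254 CPM (WT label) and 0.0665 CPM (KO label), and the next was 0.595 (*Tat*). The part of the heat-responsive and glucocorticoid-responsive genes in the *Per1* difference was not tested.

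*Ciart* at 6 months L had 5 counts (0.311 CPM) in the library labelled WT and 58 counts (3.40 CPM) in the library labelled KO, a ratio of 10.9 (4.42 to 34.9). At 12 months L it went the other way, from 2.47 to 1.13 CPM, a ratio of 0.457 (0.242 to 0.826). *Per2* ratios lay between 0.708 (6 months H) and 1.48 (6 months L), and the counting interval left out 1 in 4 of the 6 pairs. *Per3* ratios lay between 0.653 (6 months H) and 1.57 (2 months L). *Cry1* and *Cry2* were both lowest at 12 months L, with ratios of 0.681 (0.594 to 0.780) and 0.667 (0.575 to 0.772), and between 0.852 and 1.08 in the other pairs.

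**Figure D4:**
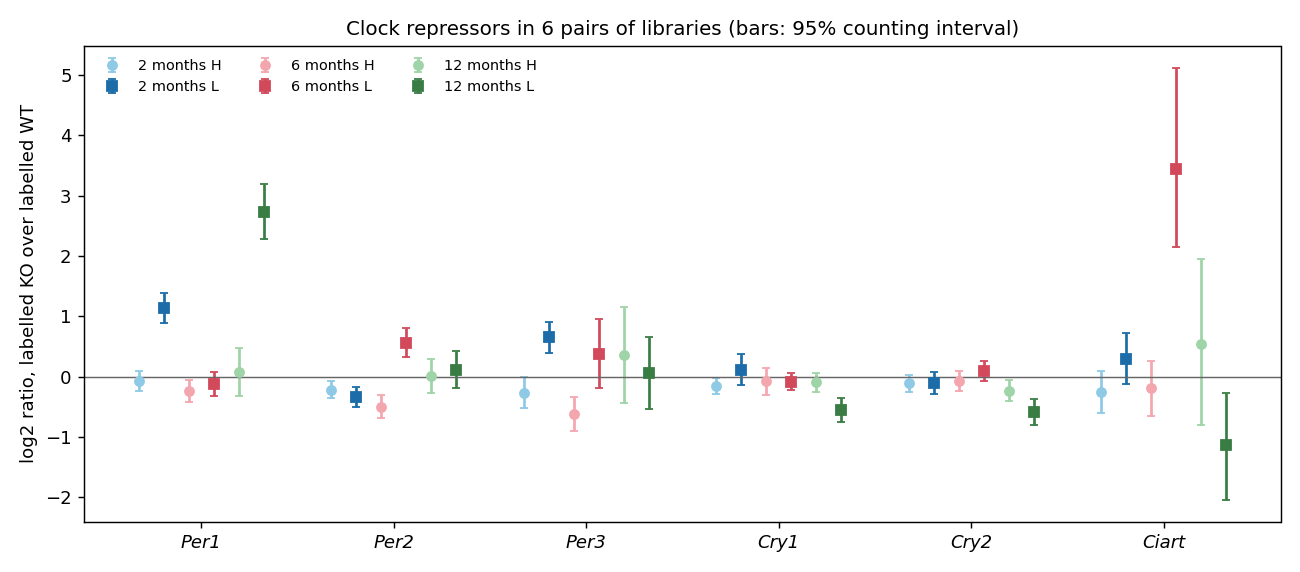
Log2 ratio of the library labelled KO to the library labelled WT (y axis) for each clock repressor in the 6 pairs (x axis), with 95% counting intervals as bars. The *Per1* ratio at 12 months L and the *Ciart* ratio at 6 months L stand furthest above 0.

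An absolute log2 ratio over 1.2 was reached by 1 member at 6 months L, *Ciart*, where 5.54% of all genes reached it, and by 1 member at 12 months L, *Per1*, where 7.13% did. No member reached it at 2 months H (4.11% of all genes), 2 months L (6.62%), 6 months H (4.86%), or 12 months H (3.44%). At 2 months H and 6 months H, all 6 members were lower under the KO label, while 4 of 6 were higher at 12 months H, 4 at 2 months L, 4 at 6 months L, and 3 at 12 months L. The counting interval took in 1 for *Per1*, *Cry2*, and *Ciart* at 2 months H and for *Cry1*, *Cry2*, and *Ciart* at 6 months H. It also took in 1 for each of the 4 higher members at 12 months H. The share of all genes lower under the KO label in each pair was not computed, so these counts of direction have no background.

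Interaction terms in edgeR tested whether genotype acted differently by age, or by H and L. By age 0 members passed, against 0.0135% of all genes, and 0 had an unadjusted p under 0.05, where 478 of 14843 genes had one. By time of collection 0 members passed, against 0.00674% of all genes. *Per3* alone had an unadjusted p under 0.05 (0.0301, adjusted p = 0.977), with *Per1* next (0.0512), where 753 of 14843 genes were under 0.05. DESeq2 called 0 members in both. *Per3* was lower in the KO label at 2 and 6 months H, with ratios of 0.832 and 0.653, while at 12 months H the ratio was 1.28 and in the L pairs it was 1.57, 1.30, and 1.05. *Arntl*, their activator, had KO to WT ratios of 1.92, 1.53, and 0.942 at H and 0.341, 0.452, and 0.492 at L for 2, 6, and 12 months (adjusted p of the interaction = 0.312 by edgeR).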

How the data were processed

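The authors trimmed reads with fastp, aligned them to mm10 with HISAT2, and counted reads per gene with featureCounts, according to the labels, which give no versions, and the deposited values are raw counts. Whether counting used strand and which annotation it used is not given in the sources used here. Both tables were used in full, with 0 columns left out. Time-course rows were matched by symbol, genotype rows by Ensembl identifier, and locations and exon lengths came from GENCODE M21 (GRCm38). Promoters came from RefSeq (GRCm38.p6), where *Per2* was not matched.

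CPM used library totals times edgeR's TMM factors. Fits were run on the whole table after filterByExpr. P-values were adjusted over all genes tested by Benjamini-Hochberg, and the threshold was 0.05. R 4.3.3, edgeR 4.0.16, limma 3.58.1, DESeq2 1.42.0, and Python 3.11.15 (pandas 2.3.3, numpy 2.4.6, matplotlib 3.10.9, scipy 1.17.1) were used, and the scripts were tested on simulated data. Intervals of single libraries and ratios are exact at 95% and cover counting error only, and 3 counts or fewer are near the floor. The time points of an age, and the 6 pairs of the genotype experiment, stood in for replicates. The named genes were the 6 members, listed clock, turnover, and complex genes that passed a test, *Arntl* and *Nr1d1*, the 3 genes most like each member by r, and *Egr1*, and a result that this rule names is not reported here. *Mt2* and the other glucocorticoid-responsive genes, *Nfil3*, the heat-responsive genes, and the cell type markers were named after their values were seen. The counts of peak shifts over all genes and the nearest-time measure were likewise chosen after the data were seen. The members and lists were chosen with earlier results of these data known. Alternatives for normalization, filter, test, and samples were computed again for each result.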

Additional observations from a re-analysis of the deposited data

How the results depend on the processing

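The 24-h curves called 3 to 5 of the 6 members at 2 months, 3 to 5 at 6 months, and 5 at 12 months when single libraries were left out, with the low of 3 at 2 months without ZT1. In the exact permutation test, library totals without TMM factors gave 4 members at 2 months, and the edgeR curve at an unadjusted p under 0.05 gave 6 at 2 months and 5 at 6 months. At that unadjusted threshold the curve passed in 2788 of 14268 genes at 2 months and in 2672 at 6 months. The level of 6 against 2 months called 2 members by the level of the fitted curves and 2 without a filter on low counts (*Cry2* and *Per3* in both), and 0 to 1 without single times, with 0 without ZT1, ZT9, ZT13, or ZT17. The rhythm of 6 against 2 months called 2 members without the filter and 2 by DESeq2, and 0 to 1 without single times, with 1 without ZT9. Without the filter, the level of 12 against 6 months called 1 member (*Per3*) and the genotype effect by time of collection called 1, and DESeq2 called 1 for the rhythm of 12 against 6 months. Calls over all genes also varied with the setting. They numbered 885 to 2147 for the level of 6 against 2 months and 628 to 2571 for that of 12 against 6 months. For the rhythm they numbered 0 to 266 and 0 to 168 in the same comparisons, and for genotype by time of collection 0 to 117. Leaving out single times or pairs called 0 members in the other comparisons of level and rhythm, in genotype over the 6 pairs, and in genotype by time of collection. The causes were not tested.

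Signs of differences that had not passed a test turned in 23 settings. From 2 to 6 months *Per1* was 0.041 by the fitted curves, 0.00092 by DESeq2, and -0.35 to 0.12 without single times. Without single times, differences from 2 to 12 months ranged from -0.19 to 0.062 (*Per2*), -0.26 to 0.083 (*Per3*), and -0.82 to 0.033 (*Ciart*), and from 6 to 12 months from -0.30 to 0.24 (*Per1*) and -0.039 to 0.26 (*Cry1*). For KO against WT, the H pairs alone gave -0.10 for *Per1*, -0.30 for *Per3*, and -0.12 for *Ciart*, and the L pairs alone gave 0.084 for *Per2*. Without single pairs, differences ranged from -0.21 to 0.012 (*Per2*), -0.097 to 0.23 (*Per3*), and -0.17 to 0.42 (*Ciart*). Leaving out 2 months L and 12 months H, chosen after seeing the data, called 0 members and gave -0.17 for *Per3*. Fitting no block for the pair, or age and H/L terms in its place, also called 0 members. Each age and time has 1 library, so a difference between mice and one between times cannot be told apart, and *Ciart* and *Per3* troughs rest on few counts.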
